A study of Homo sapiens with 6 samples.

Results

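The gene set described here comprises 41 genes of the unfolded protein response and of the transcription factor ATF4. It was drawn up from textbook pathway membership and not by a cut on these data, though with earlier results of these data known. By Entrez gene ID, all 41 of its genes were found among the 23459 genes of the count table. Its members fall into 6 branches. These are 9 regulators of the ATF4 arm, 8 enzymes of amino acid, serine and one-carbon metabolism, 4 stress sensors and transducers of the endoplasmic reticulum (ER), 14 ER chaperones and folding enzymes, 4 components of ER-associated degradation, and 2 targets that are a receptor or a secreted protein.

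The ER folds secreted and membrane proteins, and misfolded protein in its lumen activates the sensors PERK (EIF2AK3), IRE1alpha (ERN1) and ATF6. PERK phosphorylates the initiation factor eIF2alpha, which lowers translation in general but raises that of ATF4, whose targets supply amino acids and, under lasting stress, include the death-associated factor CHOP (DDIT3). IRE1alpha splices the mRNA of XBP1, and spliced XBP1 and cleaved ATF6 switch on chaperones and degradation factors, a programme that secretory tissues such as the mammary gland rely on. Much of this control acts on translation, splicing or protein cleavage, which counts per gene do not measure.

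The libraries were made from MCF10A cells, a human mammary epithelial line that is not transformed, after transfection by Lipofectamine RNAiMAX with siRNA at 20 nM. Cells received either a non-targeting control siRNA (siCtrl, 3 libraries) or siRNAs that target both YAP and TAZ (siYAP/TAZ, 3 libraries), the coactivators through which the Hippo pathway acts on transcription. Both groups shared the cell line and a medium with horse serum, insulin, hydrocortisone, cholera toxin and EGF. The description of every library carries the label WT. The comparison asks how the RNA level of each gene differs when YAP and TAZ are depleted. The study's methods describe biological triplicates for its RNA-Seq, which used another library kit, and no label says whether the 3′ libraries of a group came from separate cultures. P-values therefore measure the spread between these libraries, which may be technical. How long the cells were exposed to siRNA is not given in the labels.

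The labels contradict each other on the group for 2 of the 6 libraries. Groups were taken from the description, whose text names the columns of the count table. By that text, siCtrl replicate 2 has a title and genotype naming siYAP/TAZ, while siYAP/TAZ replicate 2 has a title and genotype naming the control. The titles differ in replicate number too, for these libraries and for siCtrl replicate 3 and siYAP/TAZ replicate 1, both titled replicate 2 of their group. Replicate numbers given here are those of the description. YAP1 was measured at 189, 204 and 210.3 CPM (counts relative to library size, scaled by the trimmed mean of M values, TMM) in siCtrl replicates 1, 2 and 3, and at 116, 118 and 112 CPM in siYAP/TAZ replicates 1, 2 and 3. WWTR1, which encodes TAZ, was at 109, 109 and 102 CPM against 70.5, 67.1 and 59.8 CPM. At both targeted genes the disputed libraries lay with the groups of the description. Both genes fell, by 0.80 ± 0.12 and 0.69 ± 0.13 on the log2 scale (SE, n = 3 per group, edgeR adjusted p = 0.0138 and 0.0311). Their RNA was left at 57.45% and 61.89% of the siCtrl level, a partial loss under which all members were compared. With 1 library left out the log2 fold changes stayed between -0.84 and -0.77 for YAP1 and between -0.75 and -0.62 for WWTR1, but WWTR1 passed only without siCtrl replicate 2 and the YAP1 call was lost when siCtrl replicate 3 (edgeR adjusted p = 0.0988) or siYAP/TAZ replicate 2 (0.0606) or 3 (0.112) was dropped. On the first principal component, which held 48.4% of the variance, siCtrl replicate 2 was nonetheless at 7.15, beside the siYAP/TAZ libraries at 9.77, 33.7 and 26.9 and away from siCtrl replicates 1 and 3 at -42.6 and -34.9. On the second, which held 22.6%, it was at -37.85, apart from all other libraries of both groups, which ran from -6.36 to 23.2. The library labelled siCtrl replicate 2 thus stands apart from its group, and results that rest on it are given with and without it. Library totals ranged from 3175149 to 4317286 counts, so 3 counts, the most that a count of 0 allows, equal 0.680 to 0.992 TMM-normalised CPM by counting error alone. Basal mammary epithelial markers were above this floor in every library for 6 of 6 genes, with a summed level of 1446 to 1834 CPM in siCtrl and of 1239 to 1404 CPM in siYAP/TAZ, which do not overlap. Also above it were 4 of 5 luminal markers, with PGR at or under it. None of 4 fibroblast and none of 3 immune markers were above it in all libraries, and COL3A1 was at 0 throughout. Of 3 endothelial markers 2 were above it, with CDH5 under it, and the summed level of the list ran from 2.01 to 3.39 CPM in siCtrl and from 4.76 to 11.2 CPM in siYAP/TAZ. The part of these marker differences in the results was not tested.

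Short promoter stretches are printed to show cis-elements known from these branches, 3 for chaperone genes and 2 for ATF4 targets. A further 2 are from members that the main edgeR fit did not call but some alternative fits did. Each is the 250 bases before the RefSeq start (GRCh38.p14), written 5′ to 3′ on the gene's strand, with capitals marking motif letters found on either strand. In the first 3, capitals mark the ER stress response element, CCAAT and CCACG with 9 bases between them, which ATF6 binds together with NF-Y, and in HSPA5 also the palindromic AP-1 site TGANTCA further from the start.
HSPA5, chr9:125241344-125241593, minus strand: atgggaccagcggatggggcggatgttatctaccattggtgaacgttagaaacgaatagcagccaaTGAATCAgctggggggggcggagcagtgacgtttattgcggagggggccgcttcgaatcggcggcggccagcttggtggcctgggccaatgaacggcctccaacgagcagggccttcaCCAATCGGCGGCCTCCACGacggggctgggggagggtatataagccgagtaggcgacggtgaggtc
HSP90B1, chr12:103930160-103930409, plus strand: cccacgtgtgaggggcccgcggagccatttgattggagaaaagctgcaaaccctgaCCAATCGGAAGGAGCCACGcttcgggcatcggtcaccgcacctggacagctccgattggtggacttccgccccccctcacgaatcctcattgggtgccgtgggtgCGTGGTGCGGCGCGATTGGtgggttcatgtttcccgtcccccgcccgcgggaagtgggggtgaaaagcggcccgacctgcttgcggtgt
CALR, chr19:12938359-12938608, plus strand: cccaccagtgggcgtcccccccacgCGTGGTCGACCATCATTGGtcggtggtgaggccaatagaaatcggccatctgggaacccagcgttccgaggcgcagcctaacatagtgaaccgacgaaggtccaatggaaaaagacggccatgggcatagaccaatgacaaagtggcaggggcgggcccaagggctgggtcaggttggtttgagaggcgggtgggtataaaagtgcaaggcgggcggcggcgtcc
In the next pair, capitals mark TGATGNAA, the core of the composite C/EBP-ATF element through which ATF4 acts with C/EBP partners.
ASNS, chr7:97872409-97872658, minus strand: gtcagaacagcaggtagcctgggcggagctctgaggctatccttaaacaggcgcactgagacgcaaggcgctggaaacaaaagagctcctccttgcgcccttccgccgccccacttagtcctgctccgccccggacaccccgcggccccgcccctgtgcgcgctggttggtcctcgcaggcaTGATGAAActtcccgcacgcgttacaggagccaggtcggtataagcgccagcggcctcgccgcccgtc
CHAC1, chr15:40953221-40953470, plus strand: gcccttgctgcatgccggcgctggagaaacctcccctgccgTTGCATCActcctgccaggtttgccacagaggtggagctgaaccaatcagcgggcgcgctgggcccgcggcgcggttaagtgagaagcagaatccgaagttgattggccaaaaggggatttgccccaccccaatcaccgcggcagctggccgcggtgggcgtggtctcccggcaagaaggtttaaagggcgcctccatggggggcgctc
In the last pair, from the promoters of the mitochondrial folate enzyme MTHFD2 and the secreted glycoprotein stanniocalcin 2 (STC2), none of the 5 searched motifs was present and no letters are in capitals.
MTHFD2, chr2:74198365-74198614, plus strand: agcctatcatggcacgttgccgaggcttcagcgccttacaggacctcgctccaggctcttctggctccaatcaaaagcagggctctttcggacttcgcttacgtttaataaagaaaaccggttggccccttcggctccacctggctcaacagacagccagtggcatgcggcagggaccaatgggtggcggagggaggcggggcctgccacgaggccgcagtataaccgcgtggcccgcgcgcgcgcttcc
STC2, chr5:173328415-173328664, minus strand: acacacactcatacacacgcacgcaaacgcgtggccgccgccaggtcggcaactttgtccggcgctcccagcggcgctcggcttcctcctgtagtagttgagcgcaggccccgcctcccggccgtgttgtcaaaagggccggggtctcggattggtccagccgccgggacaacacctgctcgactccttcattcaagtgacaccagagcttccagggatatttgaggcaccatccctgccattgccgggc

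In the comparison of all 6 libraries, none of the members was called. Of the 41 genes, 39 passed the low-count filter and were tested, and at an edgeR adjusted p under 0.05 there were 0 lower and 0 higher in siYAP/TAZ, where 1.22% of all 12510 tested genes were called lower and 0.743% higher. At an unadjusted p under 0.05 there were 5 lower members (MTHFD2, ALDH1L2, HSP90B1, PDIA4 and STC2) and 1 higher (SEL1L), against 9.27% and 8.40% of all genes. DESeq2 called 1 member lower, STC2 at an adjusted p of 0.0441, and 0 higher, with 2.57% and 1.96% of all genes called. The replicate numbers of the description were taken to pair the libraries, which rests on correlations of 0.42, 0.35 and 0.13 between same-numbered libraries. No label states a pairing, the titles number some libraries otherwise, and different-numbered libraries were not correlated for comparison. With the number as a block edgeR called 2 members lower, STC2 and MTHFD2, and 0 higher, with 5.44% and 4.66% of all genes called. Without siCtrl replicate 2 it called 0 members lower and 1 higher, DNAJB9, with 6.22% and 6.08% of all genes called. Read against those shares of all genes, the counts of 0 to 2 are not a result particular to the members.

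Fold changes of the members were small. Their median log2 fold change was -0.12, where that of all tested genes was -0.00093, with 27 members below 0 and 12 above it, against 6270 and 6240 of all genes. The values ran from -0.67 for STC2 to 0.52 for DNAJB9. The 95% intervals reached 0.27 to 0.89 to either side, and those of 31 of the 39 members lay wholly between -1 and 1. In 7 members the lowest siCtrl library was above the highest siYAP/TAZ library (MTHFD2, ALDH1L2, HSP90B1, MANF, PDIA4, PDIA6 and STC2) and in 4 the order was the other way (SESN2, CRELD2, CANX and SEL1L). Among all tested genes 11.1% and 11.0% did not overlap in these directions. In bulk RNA, fewer cells that express a gene and less RNA per cell cannot be told apart, and this holds for every value given here.

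**Figure D1:**
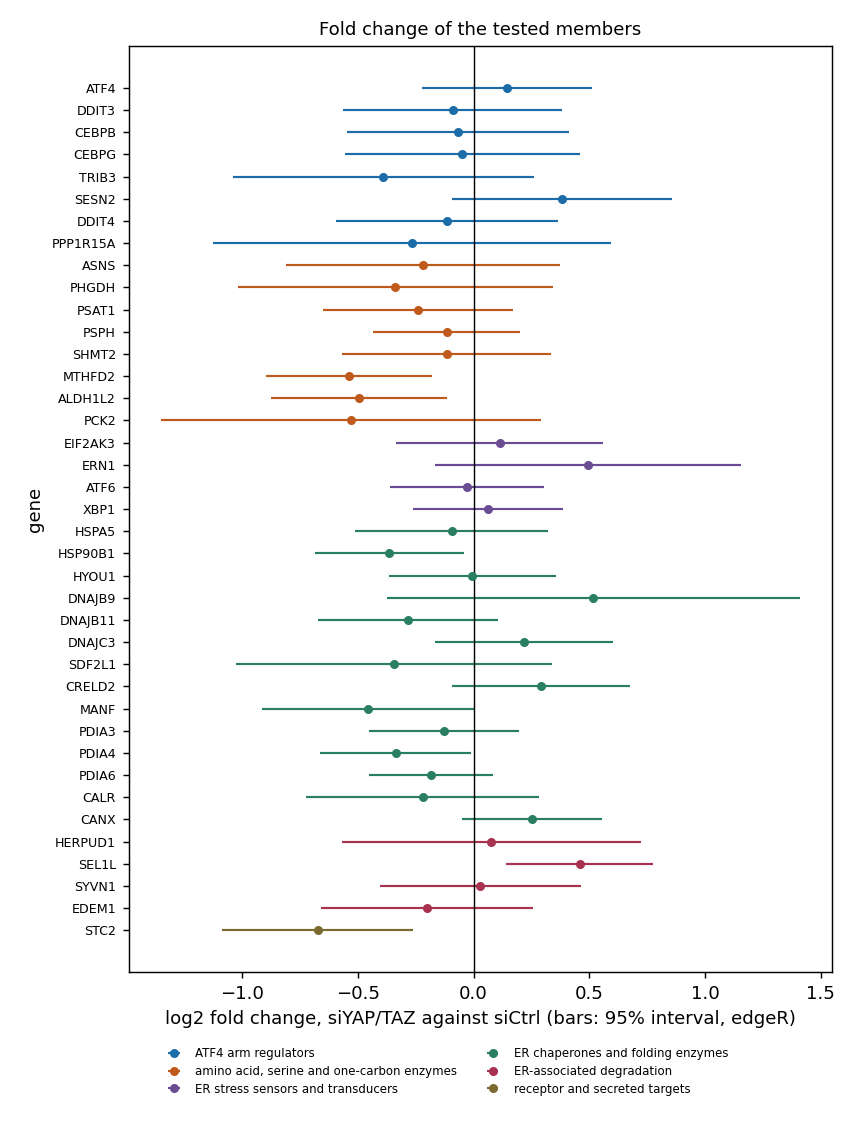
The log2 fold change (x axis, siYAP/TAZ against siCtrl, 3 libraries each) is plotted for each of the 39 tested members (y axis), with bars for the 95% interval of the edgeR fit and colours for the branch. All 8 enzymes of amino acid, serine and one-carbon metabolism lie below 0, and the intervals of MTHFD2, ALDH1L2, HSP90B1, PDIA4, STC2 and SEL1L do not include 0.

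None of the tested regulators of the ATF4 arm passed the test. ATF4 itself was at 300.4, 280.2 and 217 CPM in control libraries against 257, 291 and 334 CPM after depletion, and these ranges overlap. Its log2 fold change was 0.15 ± 0.16 (SE, edgeR adjusted p = 0.694) with a 95% interval of -0.22 to 0.51. DDIT3, which encodes CHOP, was at 26.4, 20.1 and 21.4 CPM against 25.6, 18.2 and 19.6 CPM, with a log2 fold change of -0.091 ± 0.21 (edgeR adjusted p = 0.863). Reads of DDIT3 are uncertain where MARS1 and MBD6 overlap it on the opposite strand, since it is not stated whether strand was used in counting. The other tested regulators ran from -0.39 for TRIB3, a pseudokinase induced by ATF4, to 0.38 for SESN2, a sestrin that restrains mTORC1. Between them were CEBPB (-0.068) and CEBPG (-0.048), bZIP factors that pair with ATF4, DDIT4 (-0.12), which encodes the mTORC1 inhibitor REDD1, and PPP1R15A (-0.26), which encodes the eIF2alpha phosphatase subunit GADD34. CHAC1, a glutathione-degrading enzyme, did not pass the low-count filter and was not tested. It had 6, 4 and 1 counts in control libraries against 8, 2 and 6 after depletion, a depth too low to show a small difference.

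In this arm siCtrl replicate 2 held several of the extreme values. PPP1R15A was at 10.6, 23.1 and 8.54 CPM in control libraries against 9.07, 11.2 and 14.7 CPM after depletion, so its control libraries lie both above and below all others. CEBPB was at 512, 702 and 375 CPM against 474, 555 and 488 CPM and DDIT4 at 196, 297 and 178 CPM against 180.4, 253 and 186 CPM, again with siCtrl replicate 2 highest. It was the highest of the 6 libraries for 4 of the 8 tested regulators (CEBPB, TRIB3, DDIT4 and PPP1R15A), and for 8 of all 39 members, or 20.5%, against 18.1% of all genes. It was the lowest for 5 members, 12.8%, against 18.5% of all genes. Without it the branch median turned from -0.079 to 0.16, with PPP1R15A at 0.28, CEBPB at 0.19 and DDIT4 at 0.14. None of the regulators was called in either fit.

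**Figure D2:**
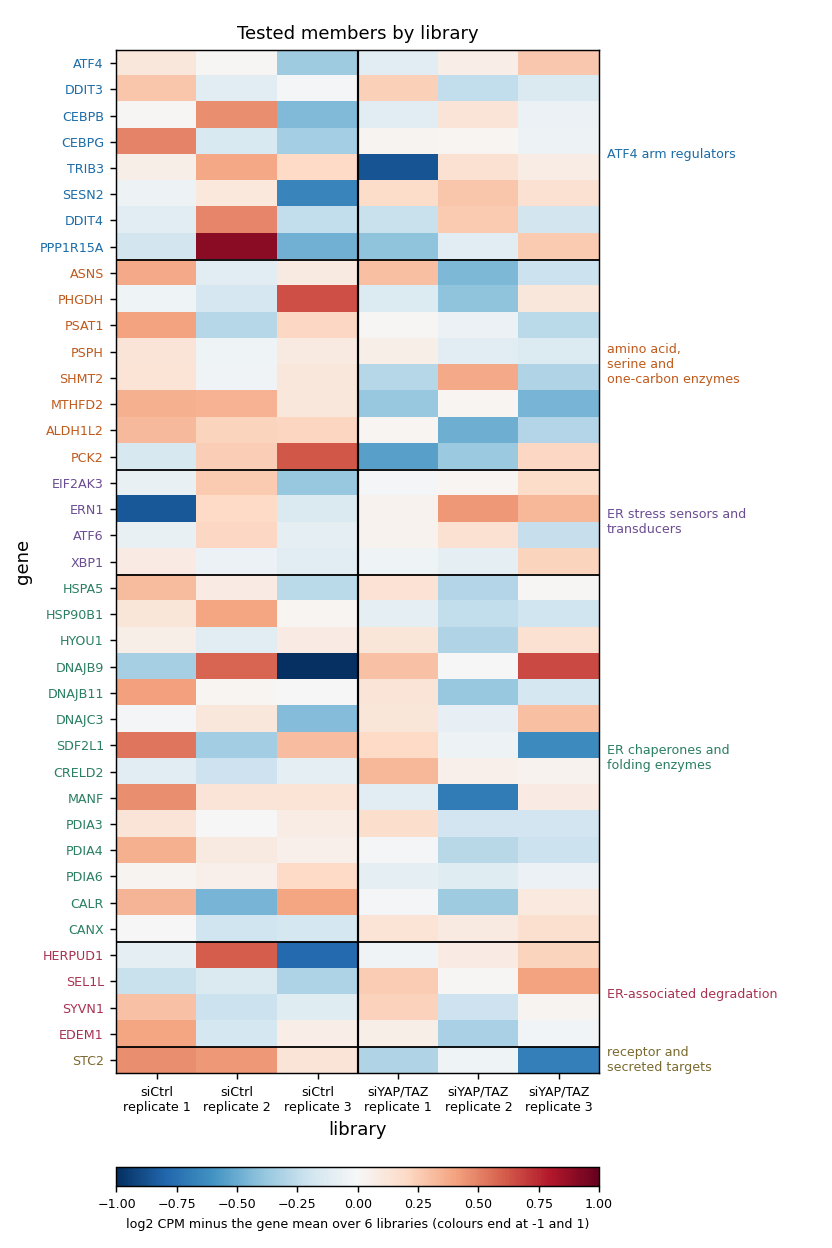
Each cell gives the log2 CPM of a tested member (rows, grouped by branch) in 1 of the 6 libraries (columns) minus that gene's mean over all 6, with blue for lower and red for higher values. The column of siCtrl replicate 2 is red for PPP1R15A, DNAJB9, HERPUD1, DDIT4 and CEBPB, whereas siCtrl replicate 3 is blue for the same 5 genes.

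The metabolic enzymes, which include well-known ATF4 targets, were the branch with the lowest median apart from STC2. All 8 had a fold change below 0, with a median log2 value of -0.29, and 2 of the 8 were lower without overlap between groups, beside 11.1% of all genes. MTHFD2 (Entrez 10797, chr2:74413299-74444692, plus strand, GRCh37), a mitochondrial enzyme of the folate cycle, was at 246, 245 and 207 CPM in control libraries against 147, 195 and 139 CPM after depletion. All 3 siYAP/TAZ libraries were below all 3 siCtrl libraries, and the means were 233 ± 21.9 and 160.3 ± 30.1 CPM (SD, n = 3). The log2 fold change was -0.54 ± 0.16 with a 95% interval of -0.90 to -0.18 and did not pass the threshold (edgeR adjusted p = 0.121). With the replicate block MTHFD2 fell by 0.55 on the log2 scale, to 68.3% of the siCtrl level, and passed (edgeR adjusted p = 0.0160). A limit is that SLC4A5 overlaps MTHFD2 on the opposite strand and its counts, 991, 923 and 964 in control libraries against 809, 686 and 674 after depletion, exceed those of MTHFD2, so reads of these genes cannot be told apart without knowledge of how strand was handled.

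ALDH1L2, a further mitochondrial folate enzyme, was at 50.5, 46.9 and 46.7 CPM in control libraries against 40.8, 28.4 and 32.6 CPM after depletion. Here too the groups did not overlap, but the log2 fold change of -0.49 ± 0.17 missed the threshold without the block (edgeR adjusted p = 0.177) and with it (0.0593). ALDH1L2 overlaps WASHC4 and NOPCHAP1 on the opposite strand, as DNAJB11 overlaps TBCCD1. SHMT2, which feeds serine carbon into the mitochondrial folate pool, had a fold change of -0.12, with the highest and the lowest of its levels both in siYAP/TAZ (65.8 and 40.8 CPM). The serine synthesis enzymes PHGDH, PSAT1 and PSPH, in the order of their steps, had log2 fold changes of -0.34, -0.24 and -0.12. ASNS, the asparagine synthetase whose promoter carries the composite element printed above, was at 19.2, 13.6 and 15.6 CPM against 18.1, 10.6 and 12.5 CPM, which overlap, with a fold change of -0.22 and a 95% interval of -0.81 to 0.37. PCK2, a mitochondrial phosphoenolpyruvate carboxykinase, had 11 to 31 counts per library and a fold change of -0.53 ± 0.37, and it shares its position with NRL on the opposite strand, which had 16 to 36 counts. In 6 of the 8 enzymes (ASNS, PHGDH, PSPH, MTHFD2, ALDH1L2 and PCK2) the siYAP/TAZ library was below its same-numbered siCtrl library in all 3 pairs, as it was in 15 of the 39 tested members and in 22.8% of all genes.

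STC2 (Entrez 8614, chr5:172741726-172755450, minus strand, GRCh37), a secreted glycoprotein induced through PERK and ATF4, had the fold change furthest below 0 among the tested members. Its levels were 98.8, 96.6 and 78.2 CPM in control libraries against 58.02, 69.4 and 44.3 CPM after depletion, without overlap. The means were 91.2 ± 11.3 and 57.3 ± 12.6 CPM (SD, n = 3), a log2 fold change of -0.67 ± 0.18 with a 95% interval of -1.08 to -0.26 (edgeR adjusted p = 0.0981). With the replicate block STC2 fell by 0.69 on the log2 scale, to 62.1% of the siCtrl level (edgeR adjusted p = 0.00839), and DESeq2 without a block also called it. The siYAP/TAZ level was lower in 3 of 3 pairs, by 0.77, 0.48 and 0.82 on the log2 scale. VLDLR, the very low density lipoprotein receptor grouped with STC2, was at 3, 0 and 2 counts in control libraries against 5, 3 and 0 after depletion and was not tested.

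**Figure D3:**
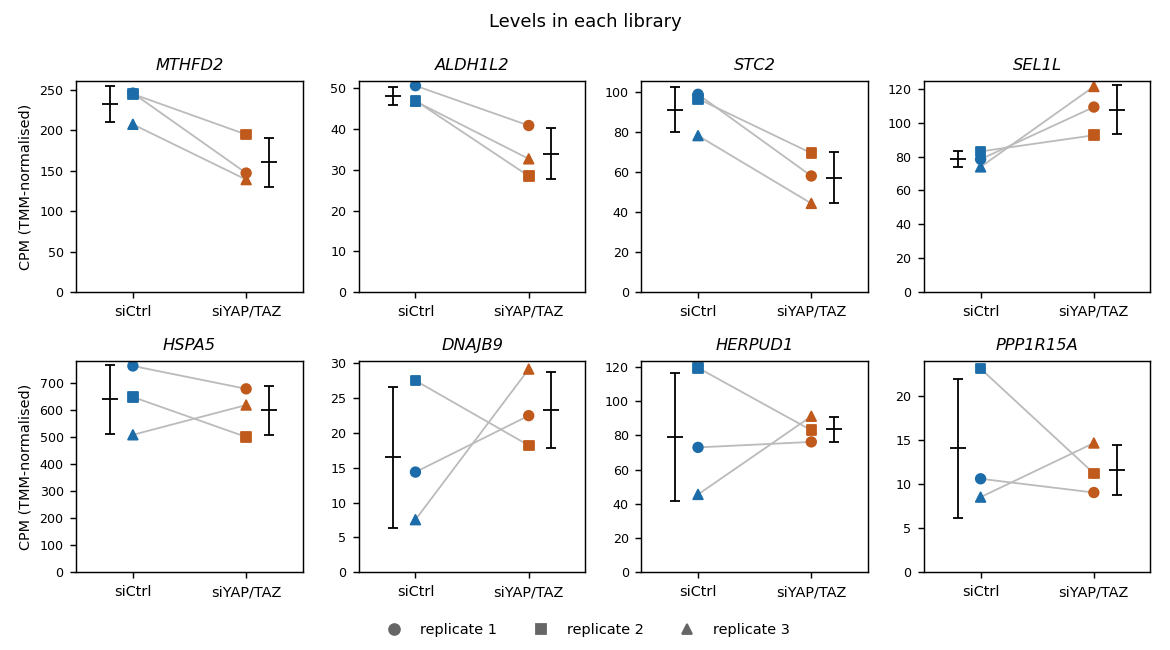
TMM-normalised CPM (y axes, each from 0) of 8 members is drawn for each library, with siCtrl in blue and siYAP/TAZ in orange, marker shapes for the replicate number, grey lines joining libraries of 1 number, and black bars for the mean and SD of each group. MTHFD2, ALDH1L2 and STC2 are lower and SEL1L is higher in all 3 pairs, whereas the control libraries of DNAJB9, HERPUD1 and PPP1R15A spread more widely than the siYAP/TAZ libraries.

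The RNA of the 3 ER stress sensors and of XBP1 did not pass the test in either direction. EIF2AK3 (PERK) was at 27.6, 34.9 and 22.1 CPM in control libraries against 28.8, 29.4 and 32.9 CPM after depletion, a log2 fold change of 0.11 ± 0.20 (edgeR adjusted p = 0.815). ATF6 was at 122, 148 and 120.1 CPM against 131, 142 and 109 CPM, a fold change of -0.029 ± 0.15 (edgeR adjusted p = 0.940). For both genes siCtrl replicate 2 held the highest level. XBP1 was at 66.1, 59.9 and 57.5 CPM against 60.3, 58.5 and 72.6 CPM, a fold change of 0.062 ± 0.14 (edgeR adjusted p = 0.863), and the counts per gene do not separate its spliced from its unspliced form. ERN1 (IRE1alpha) was at 6.89, 14.8 and 11.6 CPM against 13.2, 17.5 and 16.3 CPM. Its siYAP/TAZ libraries were higher in 3 of 3 pairs, although siCtrl replicate 2 lay above siYAP/TAZ replicate 1, and the fold change of 0.49 ± 0.30 did not pass (edgeR adjusted p = 0.420). The median of these 4 genes was 0.087 and moved to 0.18 without siCtrl replicate 2.

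Among the 14 ER chaperones and folding enzymes, 10 fold changes were below 0 and 4 above it, with a median of -0.16. HSPA5 (Entrez 3309, chr9:127997132-128003661, minus strand, GRCh37) encodes BiP, the Hsp70 of the ER lumen that binds the 3 sensors and serves as the usual readout of the response. It was at 761, 647 and 507 CPM in control libraries against 677, 499.5 and 617 CPM after depletion, so the groups overlapped. The log2 fold change was -0.094 ± 0.19 with a 95% interval of -0.51 to 0.32 (edgeR adjusted p = 0.834). HSP90B1, which encodes the ER Hsp90 GRP94, was at 454, 546 and 422 CPM against 390.1, 351 and 363 CPM, without overlap, but its fold change of -0.36 ± 0.14 did not pass (edgeR adjusted p = 0.231). Without siCtrl replicate 2, its highest library, the value was -0.25, and reads may be split with the pseudogene HSP90B2P, which had 316 to 542 counts per library.

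Non-overlapping but uncalled chaperone genes went in both directions. PDIA4 (-0.34) and PDIA6 (-0.19), disulfide isomerases, and MANF (-0.46), a secreted factor that binds BiP, were lower in every siYAP/TAZ library than in any siCtrl library. CANX, which encodes the lectin chaperone calnexin, was at 789, 687 and 700.3 CPM in control libraries against 869, 841 and 882 CPM after depletion, a fold change of 0.25 ± 0.13 (edgeR adjusted p = 0.366). CRELD2, a disulfide isomerase-like protein, was also higher in every siYAP/TAZ library, with a fold change of 0.29. Calreticulin (CALR), the soluble relative of calnexin, was at 140.4, 80.5 and 146 CPM against 109.7, 86.9 and 119 CPM and had a fold change of -0.22, or -0.44 without siCtrl replicate 2, its lowest library. The opposite signs of CANX and CALR were not tested against each other. Reads of PDIA6 overlap those of ATP6V1C2 and reads of CRELD2 those of ALG12, each on the opposite strand. ATP6V1C2 had 530 to 897 counts per library, beside 614 to 1006 for PDIA6, so the value of PDIA6 is uncertain too.

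The BiP cofactors differed in sign. The J-domain protein DNAJB9 (ERdj4) was at 14.4, 27.5 and 7.54 CPM in control libraries against 22.4, 18.2 and 29.1 CPM after depletion, with siCtrl replicate 2 above siYAP/TAZ replicates 1 and 2. Its fold change was 0.52 ± 0.40 in all libraries (edgeR adjusted p = 0.542) and 1.10 ± 0.31 without siCtrl replicate 2 (edgeR adjusted p = 0.0431), the 1 call that this omission added among the members. DNAJC3 (p58IPK), a J-domain protein of the ER, had a fold change of 0.22, DNAJB11 (ERdj3) of -0.28, and SDF2L1, a partner of ERdj3, of -0.34. HYOU1, the large chaperone that exchanges nucleotide on BiP, was at -0.0049, and PDIA3, the disulfide isomerase that works with CALR and CANX, at -0.13. PDIA3 has a pseudogene copy, PDIA3P1, with more counts than PDIA3 itself in every library, so its value is uncertain. PDIA3 is also overlapped on the opposite strand by ELL3, which had 622 to 986 counts per library beside 233 to 438 for PDIA3.

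In ER-associated degradation, SEL1L was the only one of 4 members with an unadjusted p under 0.05. SEL1L (Entrez 6400, chr14:81937891-82000197, minus strand, GRCh37) encodes the adaptor that holds the ubiquitin ligase HRD1 in its membrane complex. Its levels were 78.4, 83.01 and 73.9 CPM in control libraries against 109, 92.6 and 121 CPM after depletion, higher in every siYAP/TAZ library than in any siCtrl library. The log2 fold change of 0.46 ± 0.14, with a 95% interval of 0.14 to 0.78, did not pass (edgeR adjusted p = 0.137), nor did it with the block (0.0587) or without siCtrl replicate 2 (0.0527). SYVN1, which encodes HRD1 itself, had a fold change of 0.028 ± 0.19, and its reads overlap those of FAU on the same strand. They also overlap those of MRPL49 on the opposite strand, which had 82 to 168 counts per library. EDEM1, a mannosidase-like factor that passes misfolded glycoproteins on to HRD1, had a fold change of -0.20 ± 0.20. HERPUD1, a scaffold of the complex, was at 72.95, 119 and 45.5 CPM against 76.2, 82.97 and 91.1 CPM. Its siYAP/TAZ libraries lay within the range of the control libraries, and its fold change of 0.077 became 0.50 without siCtrl replicate 2, which did not pass (edgeR adjusted p = 0.128).

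**Figure D4:**
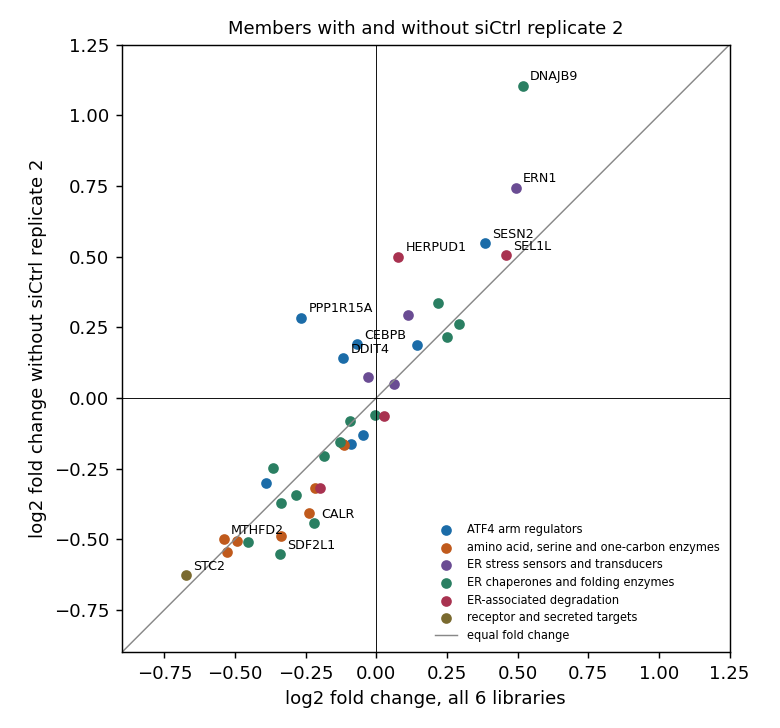
The log2 fold change of each tested member from all 6 libraries (x axis) is plotted against that without siCtrl replicate 2 (y axis), with colours for the branch and a grey line for equal values. The 2 axes share 5 of 6 libraries, and DNAJB9, HERPUD1 and PPP1R15A lie furthest above the line, at 1.10, 0.50 and 0.28 on the y axis.

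A list of 99 further genes of the same pathways was tested in the same fits. Of these, 90 passed the filter, with a median log2 fold change of -0.035, and edgeR called 0 lower and 1 higher. At an unadjusted p under 0.05 there were 6 lower and 3 higher, and DESeq2 called 1 lower and 1 higher. With the replicate block 2 were called lower and 3 higher, where the shares of all genes were 5.44% and 4.66%. The fit that omits siCtrl replicate 2 called 1 lower and 6 higher, beside 6.22% and 6.08% of all genes. Out of 90 genes these counts are below or near the shares of all genes, so the genes named next are a description. The gene called in the main comparison was NFE2L1, an ER-anchored transcription factor that is itself released by ER-associated degradation machinery and induces proteasome genes. It was at 40.8, 49.99 and 41.5 CPM in control libraries against 77.5, 64.1 and 90.3 CPM after depletion and rose by 0.81 ± 0.17 on the log2 scale (edgeR adjusted p = 0.0455, with the block 0.0107). Without siCtrl replicate 2 its adjusted p was 0.00833 (edgeR), but without any 1 of the other 5 libraries it was 0.0606 to 0.215 and the call was lost, with fold changes of 0.69 to 0.93. OS9, the lectin that works with SEL1L, was at 27.3, 25.3 and 24.9 CPM against 39.2, 37.7 and 49.5 CPM, with a fold change of 0.71 that passed with the block (edgeR adjusted p = 0.0688 without and 0.0249 with it).

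Outside ER-associated degradation, 3 further genes were called with the block, 1 in each of the other lists. MTHFD2L, a paralogue of MTHFD2, was at 344, 302 and 358 CPM against 193, 242 and 167 CPM, a fold change of -0.74 ± 0.16 (edgeR adjusted p = 0.0529 without and 0.00972 with the block). FKBP14, a prolyl isomerase of the ER, was at 47.7, 58.3 and 53.5 CPM against 33.8, 41.98 and 27.7 CPM, a fold change of -0.63 (edgeR adjusted p = 0.115 and 0.0267). NUPR1, a stress-induced ATF4 target, was at 6.89, 18.5 and 9.30 CPM against 20.6, 19.8 and 35.9 CPM, a fold change of 1.15 ± 0.38 (edgeR adjusted p = 0.159 and 0.0425), and its siCtrl replicate 2 was nearest to the siYAP/TAZ libraries. Without that library its fold change was 1.65 (edgeR adjusted p = 0.0101), and MTHFD2L (edgeR adjusted p = 0.00954) and OS9 (0.0338) also passed, whereas FKBP14 did not (0.0792). By list, the 25 tested genes among other ATF4 targets had 20 fold changes below 0 and 5 above, the 10 serine and one-carbon enzymes 6 and 4, the 33 chaperone, folding and import genes 14 and 19, and the 22 degradation genes and sensors 8 and 14.

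The promoter windows were searched for 5 motifs on both strands, in 37 members with a RefSeq window and in 27305 genes in all. The ER stress response element, spelled out with the printed sequences, was found in 7 members (18.9%), namely XBP1, HSPA5, HSP90B1, CRELD2, PDIA6, CALR and CANX, and in 0.0916% of all genes. It lay 66 to 48 bases before the start in HSPA5 and at 2 places in HSP90B1. The 7 genes had log2 fold changes from -0.36 to 0.29 with a median of -0.094, and 4 were below 0. TGATGNAA was found in CEBPG, CHAC1, ASNS and HERPUD1 (10.8% of members, 3.89% of all genes), of which the 3 tested had fold changes from -0.22 to 0.077. TGACGTGG, a core bound by XBP1, was found in HYOU1 (0.78% of all genes). TGANTCA, the AP-1 site, was found in DDIT3 and HSPA5 (8.06% of all genes), and CATTCC, the letters bound by TEAD factors, in ERN1 alone among the members (14.3% of all genes). TGANTCA and TGATGNAA were not found in the same window of any member, and CCACG is the reverse complement of the last letters of TGACGTGG, so those motifs share letters. Matches describe these 250 bases only.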

How the data were processed

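RNA had been measured by 3′ mRNA-Seq (QuantSeq FWD) in 6 MCF10A libraries. The authors deposited raw counts per Entrez gene, with no normalisation. The submitters' processing notes name cutadapt 4.2, Bowtie2 2.3.5.1 and hg19, and the study's RNA-Seq methods describe counting of overlapping reads in R. The annotation and use of strand for these libraries are not given in the sources used here. The table held 23459 genes, 0 unnamed rows and 0 unused columns. Symbols came from RefSeq (GRCh38.p14, names only, 23308 IDs with 99.7% of counts matched), gene positions from GENCODE lifted to GRCh37 (the coordinates of hg19), and promoter windows from RefSeq (GRCh38.p14). PSPH, SHMT2, ALDH1L2 and PDIA3 had no window there.

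In R 4.3.3, edgeR 4.0.16 was run on these counts (filterByExpr at its defaults, TMM factors, quasi-likelihood F test of group with no covariate). P-values were adjusted by Benjamini-Hochberg over 12510 genes, and 0.05 was the threshold. Standard errors and 95% intervals come from that fit. CPM are TMM-normalised, and errors on CPM are SD. Library totals of 3175149 to 4317286 counts put the limit of a count of 0 (3 counts) at 0.680 to 0.992 TMM-normalised CPM. This limit covers counting error alone, since the reads carry no molecular identifiers.

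After removal of group means, log2 CPM of same-numbered libraries correlated across genes with r of 0.42 for replicate 1, 0.35 for replicate 2 and 0.13 for replicate 3. On this basis alone, with no label that states a pairing, the numbers of the description were taken to pair the libraries. Different-numbered libraries were not correlated. The fit with the number as a block is given where it changes a call. The further alternatives were both disputed libraries left out, groups by title, each library dropped, DESeq2 1.42.0, scaling by RLE or by library size, no filter, a stricter filter (mean of 50 counts or more) and robust dispersions. The script was tested on simulated data.

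The members, the further pathway genes and the marker lists were chosen with earlier results of these data known, so no p-value was adjusted over a list. Members called with or without the block, and ATF4, DDIT3, XBP1, ATF6, ERN1, EIF2AK3 and HSPA5, were to be given in full, the others by fold change, and of the further genes those called with or without the block. Values per library of other members were chosen after they were seen.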

Additional observations from a re-analysis of the deposited data

How the results depend on the processing

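Of 581 values of single members recomputed under the alternatives, 541 kept their direction and side of the threshold, 8 passed it in addition and 32 changed sign, all in 14 of the 39 tested members. Every interval rests on 3 libraries a group and on degrees of freedom in part shared across genes. The intervals of DNAJB9, PPP1R15A and PCK2 were the widest among the tested members. Why values moved was not tested.

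The number of members called lower was 0, and 1 with DESeq2, 2 with the replicate block and 2 without both disputed libraries (MTHFD2 and STC2). The number called higher was 0, and 2 without both disputed libraries (DNAJB9 and SEL1L), with 0 to 1 when each library was left out in turn, the 1 being without siCtrl replicate 2. With the groups of the titles the median of the members was -0.0082. Among the further pathway genes 0 were called lower, and 1 with library size alone, DESeq2, no filter or robust dispersion, 2 with the block and 2 without both disputed libraries, with 0 to 1 when each library was left out. The number called higher was 1, and 0 with library size alone, 3 with the block, 0 with the groups of the titles and 5 without both disputed libraries, with 0 to 6 when each library was left out, the 6 being without siCtrl replicate 2. The blocked fit changed no other call among the members. Without both disputed libraries, and in other alternatives for which no share of all genes is given above, that share was not computed. The counts called in those fits are therefore not read as a result particular to the members or the further genes.

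With the groups of the titles, CEBPB (0.21), DDIT4 (0.079), PPP1R15A (0.62), ATF6 (0.014), HSPA5 (0.13), HSP90B1 (0.083) and HYOU1 (0.10) changed sign, HYOU1 did at a mean of at least 50 counts (0.010), and without both disputed libraries CEBPB (0.12), PPP1R15A (0.31), HSPA5 (0.033) and HYOU1 (0.071) did. With each library left out in turn, sign changes gave log2 fold changes from -0.11 to 0.075 in ATF6, from -0.27 to 0.19 in CEBPB, from -0.22 to 0.25 in CEBPG, from -0.26 to 0.035 in DDIT3, from -0.28 to 0.14 in DDIT4, from -0.040 to 0.295 in EIF2AK3, from -0.21 to 0.50 in HERPUD1, from -0.24 to 0.052 in HSPA5, from -0.083 to 0.13 in HYOU1, from -0.53 to 0.28 in PPP1R15A, from -0.37 to 0.0067 in SHMT2, from -0.088 to 0.20 in SYVN1 and from -0.038 to 0.12 in XBP1.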
